A study of Mus musculus with 8 samples.

Results

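The genes described here encode the respiratory chain and ATP synthase, the 5 protein complexes of oxidative phosphorylation. They were chosen by gene symbol alone: the subunit families mt-Nd, mt-Co, mt-Cyt and mt-Atp of the mitochondrial genome, and the families Nduf, Sdh, Uqcr, Cox4 to Cox8 and Atp5 of the nuclear genome. Of the 27554 genes in the deposited count table, 98 fitted, of which 13 were encoded in mitochondrial DNA and 85 in the nucleus. A further 12 symbols of the gene annotation fitted the rule but were pseudogenes or a long non-coding RNA and were not used here.

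The study sequenced polyadenylated RNA from mouse muscle stem cells that had been sorted from hindlimb muscle. All mice were of the C57BL/6NTac strain and carried both engineered alleles, Pax7tm3955 with the green fluorophore ZsGreen and Myf5tm3956 with the far-red E2Crimson, so no group was free of a reporter. ZsGreen marked Pax7-positive cells, Pax7 being the factor by which muscle stem cells are recognised, and the cells at either end of the E2Crimson range, which follows the muscle lineage factor Myf5, were collected as Myf5High and Myf5Low. There were 4 groups (female Myf5High, female Myf5Low, male Myf5High and male Myf5Low), each with 2 libraries, and each library came from a pool of 4 mice. The labels used here name no treatment and no age.

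Complex I (NADH dehydrogenase) and complex II (succinate dehydrogenase) pass electrons to ubiquinone. Complex III (the cytochrome bc1 complex) hands them to cytochrome c, complex IV (cytochrome c oxidase) gives them to oxygen, and complex V (ATP synthase) uses the resulting proton gradient to make ATP. Complexes I, III, IV and V are built from subunits of both genomes, while all subunits of complex II are nuclear. The mitochondrial genome is transcribed as long precursors from each strand that are cut into single messages, and mt-Nd6 is the only protein gene read from the light strand. Quiescent muscle stem cells are known for few mitochondria and low oxidative metabolism.

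Gene counts per library ranged from 3140361 to 4238427. Levels are given in CPM, that is, read counts relative to the library's size, with TMM scaling (trimmed mean of M-values), and levels compared between genes are further divided by exon length in kilobases (kb). The smallest level taken as detectable, 3 counts, lay between 0.672 and 0.986 CPM. In all, 85 of the 98 genes passed the filter on low counts and were tested, 7 mitochondrially encoded and 78 nuclear. Pax7 lay between 1001 and 1498 CPM in the 8 libraries. Myf5 was higher in Myf5High by 1.19 on the log2 scale (edgeR adjusted p 0.0284, SE 0.27), at 39.5 to 128 CPM against 24.998 to 49.9, and male Myf5High replicate 2 lay below 2 of the Myf5Low libraries. Because these are bulk samples, fewer cells of a type and less RNA per cell cannot be told apart.

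Before the levels are read, 1 feature of the count table bears on the mitochondrially encoded genes. In all 8 libraries mt-Co2 and mt-Co3 (catalytic core subunits of complex IV), mt-Atp6 (the membrane subunit of ATP synthase that forms the proton channel), mt-Nd3 and mt-Nd4l (membrane subunits of complex I) had 0 counts, and mt-Atp8, the small partner of mt-Atp6, had 1 count in all. The libraries together held 211264 counts of mt-Nd4, which adjoins mt-Nd4l on the same strand. The 5 genes at 0 are those with a near-complete copy in the nuclear genome. Annotated unprocessed pseudogenes cover chromosome 1 from 24611535 to 24616197 on the minus strand (GRCm38), where they follow the order of the mitochondrial genome from mt-Co1 to mt-Nd4.

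Over stretches of 50 bases, 100% of mt-Co2 was also present in another annotated transcript. The shares were 99.9% for mt-Co3, 99.5% for mt-Atp6, 98.8% for mt-Nd4l and 98.0% for mt-Nd3. Among genes with counts, the shares were 62.2% for mt-Nd4, 51.1% for mt-Co1, 8.19% for mt-Nd2, 7.61% for mt-Nd5 and 0% for mt-Nd1, mt-Cytb and mt-Nd6. The genes at 0 were thus all above the genes with counts in this share, except that mt-Atp8 shared 0% and still held a single count. Between the copies of mt-Co2 and mt-Atp6 no transcript is annotated on chromosome 1, and mt-Atp8 lies between the same 2 genes in the mitochondrial genome. None of the copies was a row of the count table.

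The sequences show how close the copies are. Aligned without gaps, mt-Co2 and its copy Gm28661 were identical at 681 of 681 bases, mt-Atp6 and Gm10925 at 678 of 678, mt-Co3 and Gm28437 at 783 of 783, and mt-Nd4l and Gm10222 at 294 of 294. mt-Nd3 and Gm28438 differed at 1 of 345 bases, and its first 60 bases are given beside those of the copy, with the differing base in capitals. The third sequence is the stretch of mt-Nd4 (chrM:11013-11072, plus strand) in which its copy Gm28439, identical over 876 bases, ends; capitals mark the bases past that end. The sequences are those of GENCODE M21 transcripts on GRCm38, written 5′ to 3′.
mt-Nd3 (chrM:9459-9518, plus strand): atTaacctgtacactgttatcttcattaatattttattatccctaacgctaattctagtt
Gm28438 (chr1:24613060-24613119, minus strand): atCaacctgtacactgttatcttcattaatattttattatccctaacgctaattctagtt
mt-Nd4 (chrM:11013-11072, plus strand): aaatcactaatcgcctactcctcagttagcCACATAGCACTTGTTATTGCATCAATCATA

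Of the 1378 bases of mt-Nd4, 502 lie past the copy. How the counting treated reads that fit more than 1 place was not given in the sources used here, and the tally of reads with a non-unique alignment was 0 in every library. Its part in the genes at 0 was not tested. For the results that follow, mitochondrially encoded complex V was not measurable, mitochondrially encoded complex IV rested on mt-Co1 alone, and the levels of mt-Nd4 and mt-Co1 could be understated.

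**Figure D1:**
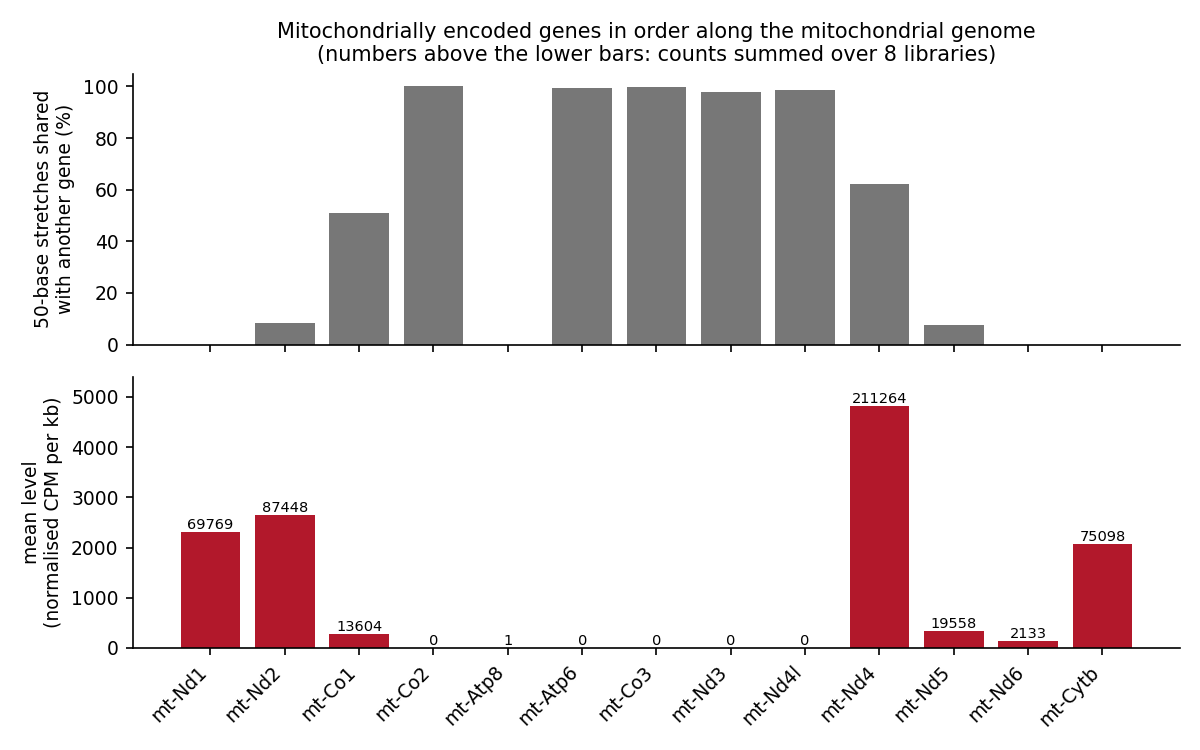
For each of the 13 mitochondrially encoded genes, in order along the mitochondrial genome, the upper bars give the percent of 50-base stretches found in another annotated transcript and the lower bars the mean level over 8 libraries in normalised CPM per kb, with the summed counts above them. The 5 genes with a share of 98.0% or more have 0 counts, and mt-Atp8 has 1 count at a share of 0%.

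The 7 measured mitochondrial genes stood far above most nuclear members. mt-Nd4, a proton-pumping subunit of complex I, had the highest mean level at 4822 CPM per kb. It was followed by mt-Nd2 at 2656, mt-Nd1 at 2310 and mt-Cytb, the cytochrome b of complex III, at 2080 CPM per kb. mt-Nd5 at 341, mt-Co1, the catalytic subunit of complex IV, at 281 and mt-Nd6 at 130 CPM per kb were lower.

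With all counts of a gene divided by only the length in 50-base stretches found in no other gene, mt-Nd4 reached 13236 and mt-Co1 593 CPM per kb. This alternative was chosen after seeing the data. It assumes that reads of shared stretches were not counted, which was not tested. By this length mt-Co1 stood above mt-Nd5, at 380 CPM per kb, and the order of the other 5 genes was the same. The nuclear members had a median of 29.98 CPM per kb and ranged from 0.868 for Atp5s to 542 for Ndufa2. On exon length, Ndufa2 and Uqcrh (421) lay above mt-Nd5, mt-Co1 and mt-Nd6. The mitochondrially encoded genes made up 71.1% of the summed level per kb of the tested members, as a mean over libraries.

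Library by library, the mitochondrially encoded genes varied widely within groups. Among Myf5High libraries their summed level was 10811.5 and 9460 CPM for females and 28724 and 7934 for males. Among Myf5Low libraries it was 13909 and 22743 for females and 9995 and 17344 for males. Both the highest and the lowest library of the series were thus male Myf5High replicates, and the range was 3.62-fold. The share of gene counts was 2.82% (95% Wilson interval 2.81 to 2.84) in the highest library and 0.694% (0.685 to 0.703) in the lowest. Such intervals cover counting error only, since no molecular identifiers were counted and several reads can stem from 1 molecule.

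The nuclear members kept a much narrower range. In females it was 6454 and 6485 CPM for Myf5High and 6474 and 7014 for Myf5Low; in males it was 6079 and 5684 for Myf5High and 6058 and 5779 for Myf5Low, a 1.23-fold range over all. The female libraries were all above the male ones. The ratio of the mitochondrial to the nuclear sum ran from 1.40 in male Myf5High replicate 2 to 4.72 in male Myf5High replicate 1. The library highest in the mitochondrial sum was not the highest in the nuclear sum, which was female Myf5Low replicate 2.

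**Figure D2:**
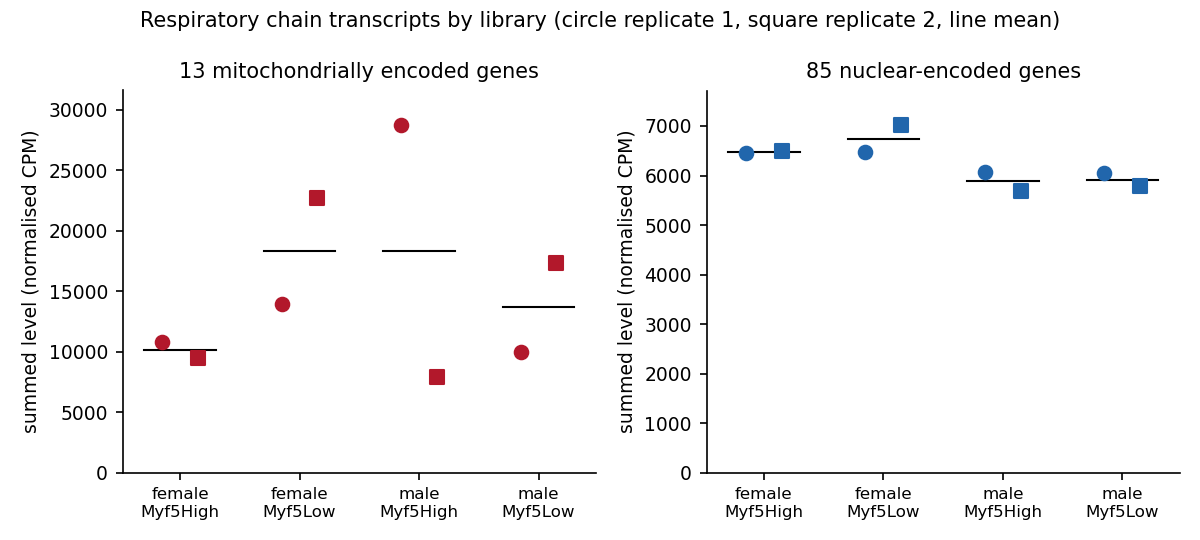
Summed normalised CPM of the 13 mitochondrially encoded genes and of the 85 nuclear-encoded genes in each of the 8 libraries, with a circle for replicate 1, a square for replicate 2 and a line at the mean of each group. The mitochondrial sum spans 7934 to 28724 and differs most between the 2 male Myf5High libraries, whereas the nuclear sum stays between 5684 and 7014.

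Between replicates of a group, the median standard deviation on the log2 scale was 0.73 for the 7 mitochondrial genes and 0.33 for the 78 nuclear ones. The median was 0.45 for all 11730 genes tested and 0.24 for the 1490 genes whose mean reached 100 CPM. All 7 mitochondrial genes had a dispersion above edgeR's trend for genes of their abundance, though mt-Nd6 only just. So had 31 of 78 nuclear members and 4452 of all 11730 genes tested. Between the male Myf5High libraries, which differed most, committed myogenic markers summed to 183 CPM in replicate 1 and 71.7 in replicate 2, fibro-adipogenic markers to 984 and 636, and muscle fibre markers to 298 and 226. The sums were lower in replicate 1 for red cell markers (1062 and 2323), immune markers (20.4 and 56.9), glial markers (45.1 and 97.97), mural markers (139 and 178) and endothelial markers (292 and 318). The single gene Gm42418 took 24.8% of gene counts in replicate 1 and 28.8% in replicate 2. Its lowest share was 20.1%, in female Myf5High replicate 2. The part of other cells or RNA quality in the spread of the mitochondrial genes was not tested.

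The mitochondrial messages largely moved together across libraries, with the light-strand gene as the exception. In females mt-Nd4 gave 4186 and 4282 CPM for Myf5High and 5750 and 9419 for Myf5Low; in males it gave 13437 and 3615 for Myf5High and 5021 and 7445 for Myf5Low. It made up 38.7% of the mitochondrial counts in the library where its share was lowest (95% Wilson interval 38.2 to 39.2) and 50.2% where it was highest (49.8 to 50.7). mt-Nd1 and mt-Nd2, core membrane subunits of complex I, likewise held a share that varied only 1.25-fold and 1.28-fold over the libraries. For mt-Cytb the share varied 2.09-fold, from 10.3% in male Myf5High replicate 2 (9.91 to 10.7) to 21.5% in female Myf5High replicate 1 (21.1 to 22.0).

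mt-Nd6, the complex I subunit of the light strand, varied 3.79-fold as a share of mitochondrial counts. It took 0.212% in male Myf5High replicate 1 (95% Wilson interval 0.187 to 0.239) and 0.802% in male Myf5Low replicate 1 (0.724 to 0.890). In male Myf5High replicate 1, where the 6 other genes stood at their highest or next to highest level, mt-Nd6 was close to its median. mt-Nd6 (chrM:13552-14070, minus strand) overlaps the end of mt-Nd5 (chrM:11742-13565, plus strand), and whether strand was used in counting was not given in the sources used here. Reads of mt-Nd6 and of the opposite strand can therefore not be told apart.

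**Figure D3:**
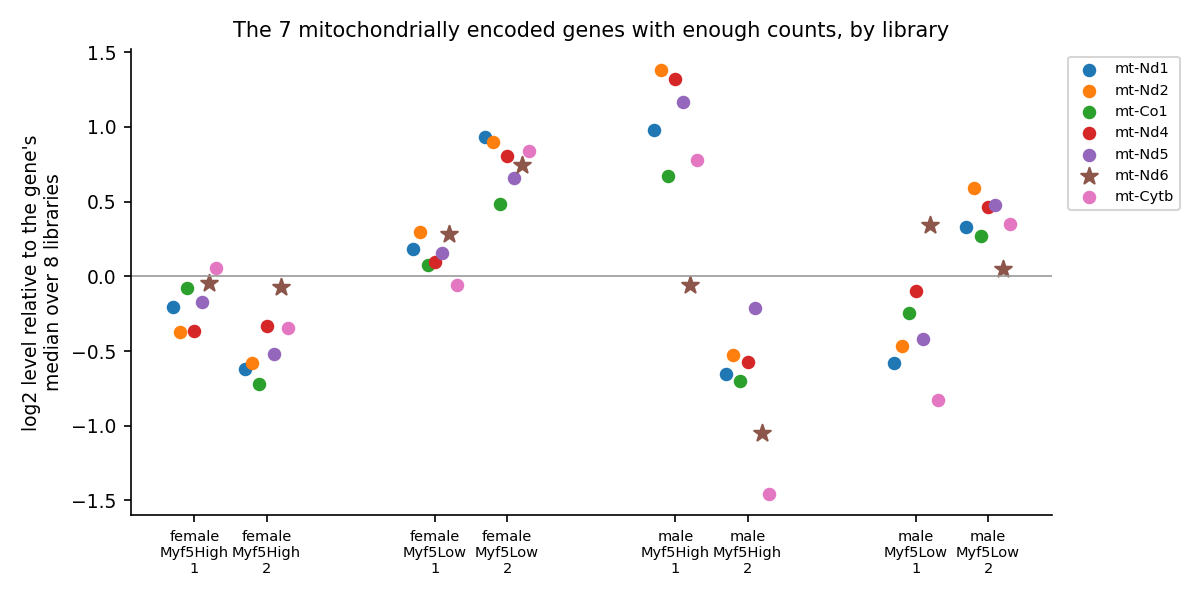
Level of each of the 7 tested mitochondrially encoded genes in each library, as the log2 ratio to that gene's own median over the 8 libraries, with 1 colour per gene and a star for mt-Nd6. In male Myf5High replicate 1 the star lies near 0 while the 6 other genes lie above it; mt-Cytb is lowest in male Myf5High replicate 2.

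The first comparison asked whether Myf5High and Myf5Low cells differ in these genes. No member differed past the threshold: 0 of 85 had an adjusted p under 0.05 in the quasi-likelihood test of edgeR, adjusted by the Benjamini-Hochberg method, against a background of 1.2% of all genes tested. At an unadjusted p under 0.05 there was 1 of 85 members, with a background of 9.36%, and DESeq2 likewise called 0. All 7 mitochondrial genes had a negative log2 fold change (Myf5High minus Myf5Low), with a median of -0.27, compared with -0.06 for the nuclear members and -0.02 for all genes. Of the nuclear members 33 of 78 were positive, against 48.1% of all genes. Without male Myf5High replicate 2, 5 of the 7 were positive, with a median of 0.06. Without female Myf5Low replicate 2 there were 2 of 7 positive and without male Myf5Low replicate 2 there were 3, while without male Myf5High replicate 1 the median was -0.81.

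mt-Nd6 was the single member with an unadjusted p under 0.05 and the single one whose fractions did not overlap (background 4.58%, or 2.22% with Myf5High lower). Its levels were 61.1, 60.1, 60.8 and 30.6 CPM in the Myf5High libraries and 76.9, 106, 80.2 and 65.2 in the Myf5Low libraries, so each Myf5High library was below each Myf5Low library. The log2 fold change was -0.63 (SE 0.24), with an edgeR adjusted p of 0.339. Without male Myf5High replicate 1 the fold change was -0.92 and the adjusted p 0.0486, and over the other fits that left out 1 library the log2 fold change lay between -0.74 and -0.43.

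Within complexes, nuclear members lay on both sides of 0 between the fractions. In complex I, 15 of 35 were positive, with log2 fold changes from -0.58 for Ndufa4, placed here by its symbol although it is known as a complex IV subunit, to 0.42 for Ndufa1. In complex III, 4 of 8 were positive, led by Uqcrb at 0.66 (edgeR adjusted p 0.613, SE 0.35). Complex IV had 4 of 14 positive, with a median of -0.16. Its lowest values belonged to isoforms with low levels, Cox6a2 at -1.40 (SE 0.93) and Cox6b2 at -1.17 (SE 0.57). Their mean levels were 3.12 and 6.44 CPM, and their edgeR adjusted p was 0.749 and 0.553. Complex II had 2 of 4 positive, from Sdhc at -0.24 to Sdhb at 0.10. Complex V had 8 of 17, from Atp5s at -0.42 to Atp5l, subunit g of ATP synthase, at 0.27. Atp5s was placed here by its symbol and is named Dmac2l in RefSeq. It had 52 counts over all libraries, a mean of 1.77 CPM. Cox5a, a nuclear-encoded subunit of complex IV, had -0.26 (SE 0.28).

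Some lists of markers of other cells and states held genes called between the fractions, where 1.2% of all genes tested were called. The summed level of 5 committed myogenic cell markers was 71.7 to 183 CPM in Myf5High and 270 to 802 in Myf5Low libraries, with 2 of 5 called lower in Myf5High by edgeR. The sum of 4 mural cell markers was 130 to 178 in Myf5High and 239 to 530 in Myf5Low, with 1 of 4 called lower, and for 9 muscle stem cell markers, a list that includes Myf5, 3 were called higher. Of 6 immune markers 1 was called lower, with overlapping sums of 20.4 to 56.9 CPM in Myf5High and 47.5 to 87.7 in Myf5Low. Of 4 fibro-adipogenic markers 1 was called higher. Their sums were 463 to 984 CPM in Myf5High and 313 to 490 in Myf5Low, again with overlap. No gene was called in the lists of muscle fibre (10 tested), endothelial (5), glial (3) and red cell markers (5). The part of these other cells and states in the comparison of respiratory chain genes was not tested.

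Split by sex, the signs of the mitochondrial genes differed. In females, 7 of 7 were negative with a median log2 fold change of -0.76; in males, 6 of 7 were positive with a median of 0.44. The 7 female values were negative without any 1 library, but their median moved from -0.45 without female Myf5Low replicate 2 to -1.0002 without female Myf5Low replicate 1. The male values depended on single libraries: 0 of 7 were positive without male Myf5High replicate 1 (median -0.73) and 4 of 7 without male Myf5Low replicate 1 (median 0.06), and with the pool as a block 4 of 7 were positive (median 0.19). mt-Nd2 had the largest contrast, at -1.10 (adjusted p 0.536, SE 0.44) in females and 0.57 (adjusted p 0.945, SE 0.44) in males. No member was called in either sex, where the backgrounds were 0.332% and 0.171%. At an unadjusted p under 0.05 there were 2 members in females (background 7.36%), mt-Nd1 and mt-Nd2, and 1 in males (background 6.67%), Uqcrfs1. With the pool as a block, mt-Nd6 also passed in males (edgeR unadjusted p 0.0394).

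The difference between the sexes in the effect of fraction was itself tested as an interaction, with 0 of 85 members and 0.0% of all genes called. At an unadjusted p under 0.05 there were 5 members, against a background of 4.54%: mt-Nd1, mt-Nd2, mt-Nd4, mt-Nd5 and Uqcrfs1. With the pool as a block, mt-Nd1 (edgeR unadjusted p 0.0600) and mt-Nd4 (0.114) no longer passed, while Cox7a1 (0.0383) did. The interaction of mt-Nd2 was -1.67 on the log2 scale (SE 0.62), with an unadjusted p of 0.0151 and an adjusted p of 1.00. DESeq2 called 0 members. mt-Nd2 was called without male Myf5High replicate 2 (log2 value -2.32, adjusted p 0.0420), and the 2 male Myf5High libraries were far apart for this gene, at 5704 and 1523 CPM. Within mouse pools, Myf5High was below Myf5Low in mitochondrial sum for both female pools and for male pool 2, and above it in male pool 1.

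The second comparison was of female with male libraries, and here the nuclear members leaned to one side. The sign was positive (higher in females) for 56 of 78 nuclear members, against 48.7% of all genes, and the median log2 fold change was 0.20, against -0.02 for all genes. Of the 85 members, 1 was called by edgeR, Uqcrfs1, with a background of 1.65%. At an unadjusted p under 0.05 there were 17 members higher in females (background 7.05%) and 3 lower (background 6.85%). All 4 female libraries lay above all 4 male ones for 10 members (background 3.59%) and below them for 2 (background 3.5%). The test took the 4 libraries of a sex as independent. If both fractions of a pool came from the same mice, the independent units are the pools, which are fewer than the libraries.

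The lean of the nuclear members held its direction in the other fits. Under the other scalings, filters and tests run, 55 or 56 of 78 nuclear members were positive (49 of 67 at the stricter filter), and leaving out 1 library at a time gave 50 to 58. No scaling moved the median of all genes by more than 0.1. The mitochondrial genes did not share the lean: 2 of 7 were positive, with a median of -0.12. Without male Myf5High replicate 1 all 7 were positive, with a median of 0.30. In that fit mt-Cytb had a log2 fold change of 0.95, against 0.20 with all 8 libraries. There were 4 of 7 positive without female Myf5High replicate 2 and also without male Myf5Low replicate 2. The direction of these 7 genes between the sexes therefore depended on single libraries.

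Uqcrfs1 (ENSMUSG00000038462, chr13:30540308-30545362, minus strand, GRCm38) encodes the Rieske iron-sulfur protein that carries electrons within complex III. In females it gave 37.8 and 31.3 CPM for Myf5High and 20.3 and 25.6 for Myf5Low; in males it gave 9.61 and 5.92 for Myf5High and 17.7 and 19.1 for Myf5Low. Each female library was above each male library, by little in Myf5Low and by far more in Myf5High. The log2 fold change was 1.23 (SE 0.30), a 2.34-fold higher level in females, with an edgeR adjusted p of 0.0477.

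The call was close to the threshold and depended on the libraries used. It was lost in 7 of the 8 fits without 1 library, and with the counts of each pool summed (edgeR adjusted p 0.0860). The log2 fold change stayed about as large, at 1.08 to 1.30 in those 7 fits and 1.06 with pool sums. The call was kept with RLE scaling, without a filter and with DESeq2, with adjusted p of 0.0480, 0.0184 and 0.0151. It was also kept in the 2 remaining alternatives (0.0466 with the stricter filter, 0.0468 with scaling without Gm42418 and mitochondrial genes). No 50-base stretch of Uqcrfs1 was shared with another annotated gene.

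Of the 8 nuclear members of complex III, 6 were positive, and Uqcrc1 (-0.10) and Uqcr11 (-0.02) were negative. Uqcrb had a log2 fold change of 0.89 (edgeR adjusted p 0.255, SE 0.35), Uqcrc2, a core subunit, 0.57 (SE 0.23) and Uqcr10, a small membrane subunit, 0.46 (SE 0.19). None of these 3 was called. Uqcrc2 ranged from 46.6 to 81.1 CPM in females and from 40.4 to 44.7 in males, without overlap, but 24.8% of its 50-base stretches were shared with another gene. Uqcrh, the hinge subunit and the most abundant nuclear member of complex III at 421 CPM per kb, was at 0.14 (SE 0.17).

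In complex I, Ndufb3, an accessory subunit of the membrane arm, came next to the threshold. Its levels for females were 68.9 and 54.2 CPM in Myf5High and 33.8 and 69.1 in Myf5Low; for males they were 28.8 and 13.8 in Myf5High and 27.8 and 33.7 in Myf5Low. The lowest female library was just above the highest male one. The log2 fold change came to 1.13 (edgeR adjusted p 0.0545, SE 0.29), and DESeq2 and the pool sums called it, with adjusted p of 0.0202 and 0.0393. Ndufa6, Ndufa9 and Ndufb9 also had all female libraries above all male ones, with log2 fold changes of 0.48, 0.63 and 0.47 and none called.

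A few abundant members went the other way. Ndufa2, the most abundant nuclear member per kb, gave 215 to 313 CPM in females and 314 to 411 in males, without overlap, with a log2 fold change of -0.44 (adjusted p 0.285, SE 0.19). Ndufa5, a subunit of the peripheral arm of complex I, had -0.62 (adjusted p 0.141, SE 0.20). Atp5k, subunit e of ATP synthase and the most abundant nuclear member of complex V at 205 CPM per kb, gave 75.03 to 122 CPM in females and 128 to 160 in males, again without overlap, with -0.43 (adjusted p 0.330, SE 0.20). None of these 3 was called with the filter on low counts and all 8 libraries, while Ndufa5 was called without the filter (edgeR adjusted p 0.0430) and without male Myf5High replicate 1 (0.0348). The lowest values of the other complexes were Sdhd at -0.64 (SE 1.12), Cox7a2l at -0.31 and Uqcrc1 at -0.10, again with none called.

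In complex V, 13 of 17 tested members were positive, with a median of 0.27. Atp5j, coupling factor 6 of the stalk, gave 17.1, 11.7, 7.42 and 28.0 CPM in females and 7.20, 2.96, 4.03 and 5.73 in males, without overlap. Its log2 fold change was 1.67 (edgeR adjusted p 0.103, SE 0.49), the highest of any member, at low counts and with 20.2% of its 50-base stretches shared with another gene. Atp5a1, the alpha subunit of the catalytic head, showed 394 to 422 CPM in females and 281 to 350 in males, also without overlap, for a log2 fold change of 0.33 (SE 0.17). Atp5g3, one of 3 genes for the same c-ring protein, had 0.85 (adjusted p 0.187, SE 0.30).

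Complexes II and IV had no member whose sexes were separated. Sdhc, a membrane anchor of complex II, had a log2 fold change of 1.03 (edgeR adjusted p 0.145, SE 0.33), while Sdhb, its iron-sulfur subunit, had -0.03 (SE 0.19). In complex IV, 10 of 14 were positive, with Cox6b2 at 1.14 (SE 0.57), Cox8a at 1.05 (SE 0.38) and Cox7b at 0.92 (SE 0.32), and none called. Cox8a was called with pool sums (adjusted p 0.0250), without the filter, without male Myf5High replicate 1 and without male Myf5Low replicate 2. Without the filter, Sdhc, Cox7b, Atp5j, Atp5g3 and Ndufb3 were also called higher in females, as they were without male Myf5High replicate 1, and Sdhc, Atp5j and Ndufb3 also without female Myf5Low replicate 1. Cox5a gave 47.2, 38.2, 38.7 and 59.0 CPM in females and 43.9, 25.0, 57.3 and 29.6 in males, which overlap, with 0.23 (adjusted p 0.765, SE 0.28).

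Summed levels of other gene groups stood as follows between the sexes, with overlap in each. Cytosolic ribosomal protein genes summed to 25610 to 33434 CPM in females and 19345 to 27284 in males, and mitochondrial ribosomal protein genes had a median log2 fold change of 0.19, with 45 of 73 positive and 0 called. Of 5 endothelial markers 0 were positive, with sums of 156 to 231 CPM in females and 204 to 410 in males. Of 10 muscle fibre markers 1 was positive, with sums of 94.97 to 258 in females and 177 to 298 in males; red cell markers had 0 of 5 positive, with sums of 950 to 1301 in females and 868 to 2788 in males. Of 9 muscle stem cell markers 8 were positive, with sums of 3143 to 4303 CPM in females and 2917 to 3588 in males, while 0 of 4 fibro-adipogenic and 0 of 3 glial markers were positive. In none of these 6 marker lists was a gene called between the sexes, and of 5 committed myogenic markers 1 was called lower in females. Their part in the lean of the nuclear members was not tested.

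**Figure D4:**
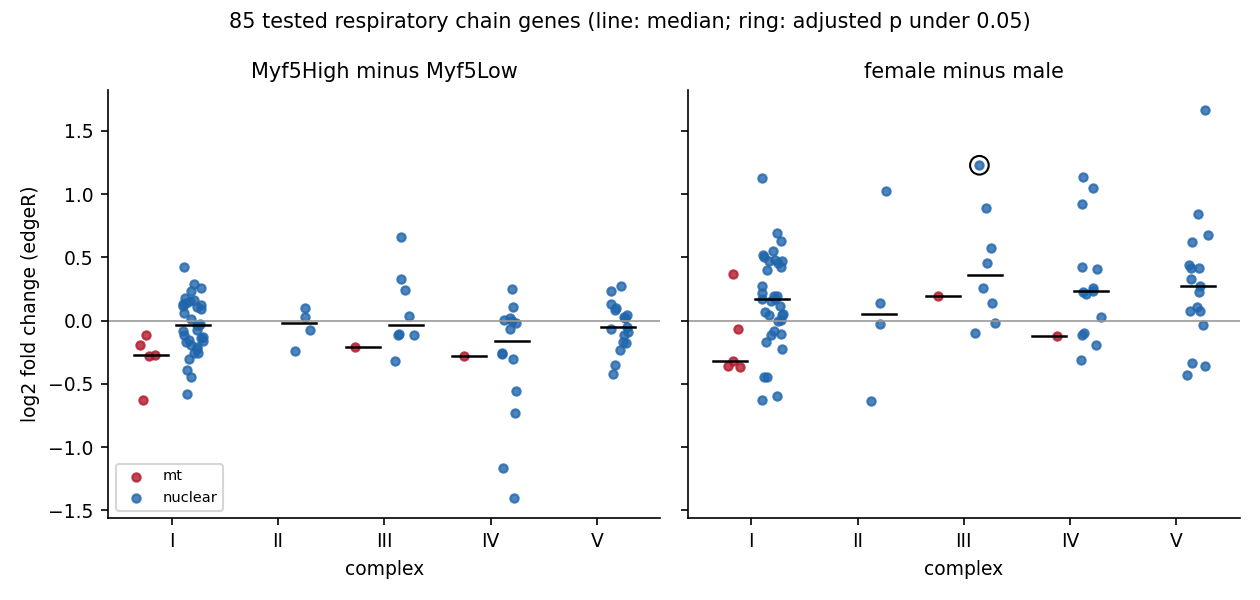
Log2 fold changes from edgeR for the 85 tested members by complex, on the left Myf5High minus Myf5Low and on the right female minus male, with mitochondrially encoded genes in red, nuclear genes in blue, a line at each median and a ring around members with an adjusted p under 0.05. The nuclear medians lie between -0.16 and -0.02 on the left and between 0.06 and 0.36 on the right, where Uqcrfs1 has the only ring.

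**Figure D5:**
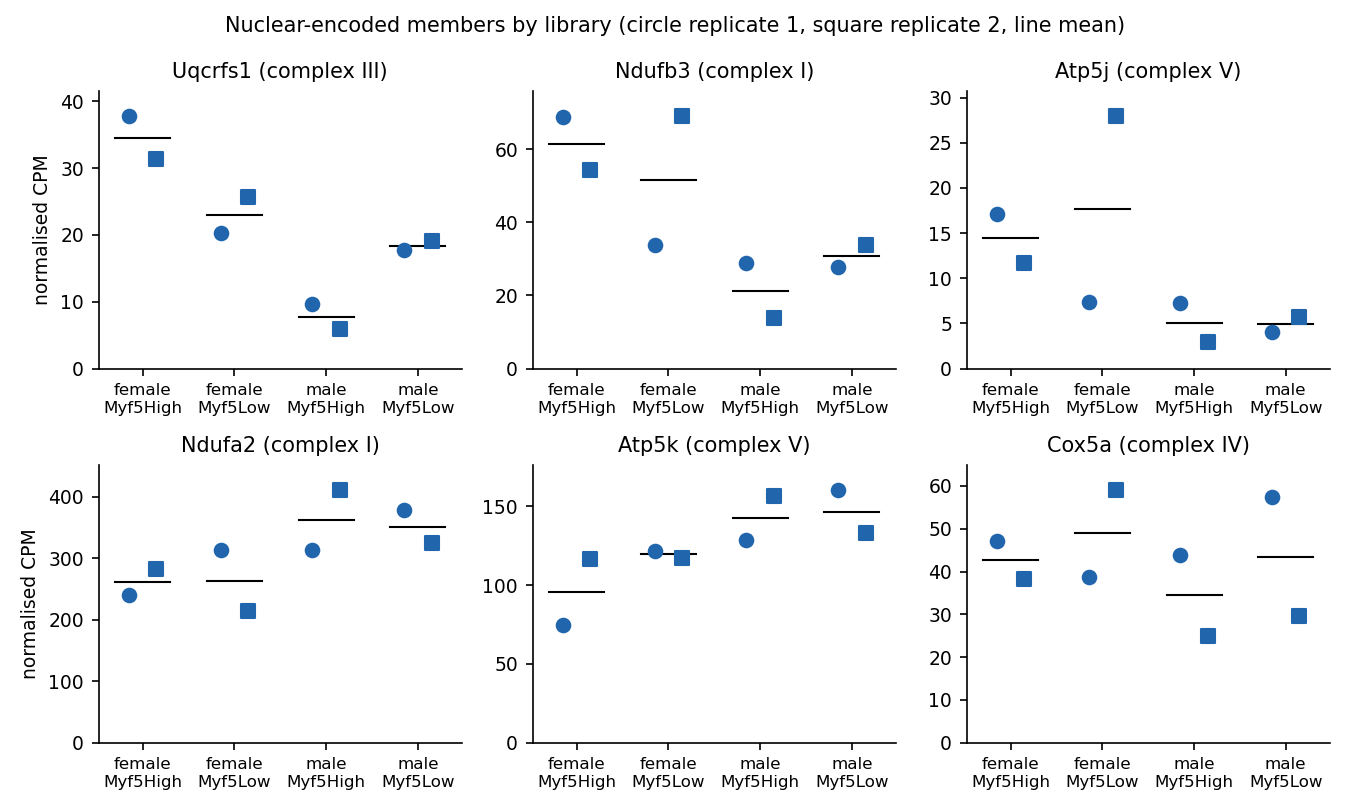
Normalised CPM of 6 nuclear-encoded members in each library, with a circle for replicate 1, a square for replicate 2 and a line at the mean of each group. Uqcrfs1, Ndufb3 and Atp5j are higher in all female than in all male libraries, Ndufa2 and Atp5k are lower, and Cox5a overlaps.

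The members that exist as tissue-specific isoforms were mostly in their general form. Cox6a1, found in most tissues, had 199 CPM per kb and Cox6a2, the heart and skeletal muscle form, 4.59. Cox7a2 had 58.6 and the related supercomplex factor Cox7a2l 93.3, against 8.83 for the muscle form Cox7a1. Cox8a had 99.4, while its muscle form Cox8b had 18 counts over all libraries and was not tested. Cox4i1 had 107 CPM per kb, and Cox4i2, the form of lung and low oxygen, had 4 counts in all.

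In the same way Cox6b1 had 148 CPM per kb and Cox6b2, best known from testis, 5.81. The c-ring genes of ATP synthase code for an identical mature protein and stood at 66.8 for Atp5g3, 3.34 for Atp5g1 and 2.54 for Atp5g2. Ndufa4 had 5.04, and its relative Ndufa4l2, induced in low oxygen, had 35 counts and was not tested. Cox7b2 and Cox8c, known from testis, had 0 counts in every library. These 0 counts allow a level of up to 0.672 to 0.986 CPM per library.

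Beyond the subunits, genes that build, express and feed the chain were counted in lists. No gene was called in lists of assembly factors for complex I (13 tested), II and III (10), IV (18) and V (3), or of mitochondrial DNA transcription, replication and RNA stability (22), transcriptional regulators (13), and the tricarboxylic acid cycle (18), for fraction or for sex, against the backgrounds of 1.2% and 1.65%. For female minus male, the median log2 fold change was 0.27 for complex I assembly factors (9 of 13 positive), -0.10 for those of II and III (3 of 10), -0.03 for those of IV (8 of 18) and -0.29 for those of V (1 of 3). It was 0.10 for mitochondrial DNA and RNA genes (12 of 22), -0.32 for the regulators (3 of 13) and 0.16 for the tricarboxylic acid cycle (11 of 18). Ppargc1b, a coactivator of mitochondrial genes, had the lowest adjusted p among the regulators for fraction, at -1.22 on the log2 scale and 0.0943. Its relative Ppargc1a had -2.43 for female minus male (adjusted p 0.130), at 0.323 to 1.92 CPM in females and 4.70 to 11.3 in males.

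In glycolysis, the other source of ATP, 1 of 16 genes was called in each comparison, a different one each time. The list's median log2 fold change was -0.09 for fraction (7 of 16 positive) and 0.19 for sex (11 of 16), and its summed levels overlapped between the groups. Hk2, a hexokinase, gave 33.4 to 118 CPM in females and 12.2 to 18.4 in males, and was higher in females by 1.99 on the log2 scale (edgeR adjusted p 0.000593, SE 0.27). Pfkp, a phosphofructokinase, gave 98.0 to 156 CPM in Myf5High and 37.2 to 59.0 in Myf5Low, and was higher in Myf5High by 1.18 (edgeR adjusted p 0.00763, SE 0.22). Chain subunits and carriers outside the symbol rule had 0 of 12 called. Among them were Ndufab1, Cyc1, the phosphate carrier Slc25a3 and the ADP/ATP carrier Slc25a4.

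The promoters of nuclear respiratory genes are known for sites of NRF1, of ETS factors such as GABP, of YY1 and of the orphan receptor ESRRA. RefSeq windows from 250 bases before to 50 after the start (GRCm38.p6) were found for 68 of the 85 nuclear members. On either strand, the ETS letters CCGGAAG were present in 16 of them (23.5%), against 9.93% of 27025 genes. The NRF1 palindrome, shown in capitals in both promoters given first, was in 5 (7.35%, all genes 1.07%), an exact YY1 core in 5 (7.35%, all genes 0.995%) and the ESRRA letters TCAAGGTCA in 2 (2.94%, all genes 0.466%). A match is a description of the letters and not evidence that the factor binds.

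Promoters are shown for the nuclear members with the highest level per kb of exon in complexes IV, V, III and II. For Ndufa2, the highest in complex I, no RefSeq window was found. The promoter of Uqcrfs1, the member called between the sexes, is also given. By CPM or per unshared kb other members of complexes IV and V were higher. By CPM alone, Sdha of complex II was also above Sdhb, at 131 against 88.8. Cox6a1 and Atp5k held both NRF1 and ETS letters, as the only 2 of the 68 members to do so, Uqcrh and Sdhb held ETS letters alone, and Uqcrfs1 held none of the letters searched. Capitals mark the matches: in Cox6a1 and Atp5k the NRF1 palindrome comes first, and the ETS letters lie on the printed strand in Sdhb and on the other strand in the other 3. No test links these letters to the levels.
Cox6a1 (chr5:115348909-115349208, minus strand): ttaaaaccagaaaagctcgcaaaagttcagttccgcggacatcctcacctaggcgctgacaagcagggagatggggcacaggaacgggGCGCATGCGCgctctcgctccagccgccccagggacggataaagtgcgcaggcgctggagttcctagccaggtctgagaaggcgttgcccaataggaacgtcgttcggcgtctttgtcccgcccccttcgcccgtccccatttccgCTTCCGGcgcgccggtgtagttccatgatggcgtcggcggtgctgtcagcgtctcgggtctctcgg
Atp5k (chr5:108434350-108434649, minus strand): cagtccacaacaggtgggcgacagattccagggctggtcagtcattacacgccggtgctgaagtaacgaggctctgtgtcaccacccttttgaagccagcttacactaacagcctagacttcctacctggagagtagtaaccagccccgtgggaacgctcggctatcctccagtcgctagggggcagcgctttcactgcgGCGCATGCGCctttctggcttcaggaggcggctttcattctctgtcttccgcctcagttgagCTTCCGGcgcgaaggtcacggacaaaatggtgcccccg
Uqcrh (chr4:116075021-116075320, minus strand): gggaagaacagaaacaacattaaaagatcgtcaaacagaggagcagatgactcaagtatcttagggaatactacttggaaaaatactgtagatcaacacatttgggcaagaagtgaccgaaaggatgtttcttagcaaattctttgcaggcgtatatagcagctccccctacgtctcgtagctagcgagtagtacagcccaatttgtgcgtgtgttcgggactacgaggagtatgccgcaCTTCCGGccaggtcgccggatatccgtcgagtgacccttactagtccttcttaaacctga
Sdhb (chr4:140961021-140961320, plus strand): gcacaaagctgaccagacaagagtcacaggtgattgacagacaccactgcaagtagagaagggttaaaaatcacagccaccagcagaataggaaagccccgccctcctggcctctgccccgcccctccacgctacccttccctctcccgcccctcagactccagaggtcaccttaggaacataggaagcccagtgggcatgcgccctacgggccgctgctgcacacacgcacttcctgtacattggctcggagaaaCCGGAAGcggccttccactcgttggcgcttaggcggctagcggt
Uqcrfs1 (chr13:30545267-30545566, minus strand): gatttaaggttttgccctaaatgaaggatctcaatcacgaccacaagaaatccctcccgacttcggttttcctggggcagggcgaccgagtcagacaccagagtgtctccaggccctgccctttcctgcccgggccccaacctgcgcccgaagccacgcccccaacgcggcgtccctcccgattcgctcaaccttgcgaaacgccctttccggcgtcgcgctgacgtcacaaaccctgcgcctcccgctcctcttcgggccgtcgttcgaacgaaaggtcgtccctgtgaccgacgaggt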

How the data were processed

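The deposited table holds raw counts, whole numbers of reads for each Ensembl gene, for 8 libraries of polyadenylated RNA, 2 per group. The submitters' processing notes name HTSeq and GRCm38; the aligner, the annotation release, the read length and the strand setting were not given in the sources used here. Rows that name no gene were left out of library sizes: unassigned reads were 42.0% to 45.3% and ambiguous reads 0.248% to 0.296% of all tallied reads.

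Symbols, exon lengths, transcripts and coordinates are those of GENCODE M21 on GRCm38, in which 27441 of 27554 identifiers matched. Exon length is the union of a gene's exons. Shared stretches are runs of 50 bases of a gene's transcripts found in a transcript of another gene; runs of 36 and 75 bases were also counted. Promoters are from RefSeq.

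The test used edgeR 4.0.16 in R 4.3.3: filterByExpr (minimum count 10, total 15), TMM scaling, 1 mean per group fitted to all 8 libraries (glmQLFit) and two-sided tests (glmQLFTest), with Benjamini-Hochberg adjustment over 11730 genes and a threshold of 0.05. edgeR's common coefficient of biological variation came to 0.36. The script was tested on simulated data. Alternatives were RLE scaling, scaling without Gm42418 and mitochondrial genes, no filter, a filter at a mean of 50 counts, DESeq2 1.42.0, the pool as a block, fits of only the libraries compared, pool sums and leaving out each library. Each replicate was a separate pool of mice.

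Myf5High and Myf5Low libraries with the same pool number were taken as coming from the same mice, which the labels do not state outright. Their deviations from the group means correlated at 0.0275 in females and 0.000373 in males over 11730 genes. The members, the gene lists and the rule for naming genes (all mitochondrially encoded members, mt-Nd4, Cox5a, called members, the most abundant and the extreme nuclear member of each complex, and isoform partners) were chosen with earlier results of these data known. Genes named outside that rule were chosen after their values were seen.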

Additional observations from a re-analysis of the deposited data

Results flagged for a closer look

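Within sets of 4 libraries (1 fraction or 1 sex), 23 of 184 sets had a library whose gap to its nearest neighbour was a large enough share of the set's range to pass Dixon's 95% critical value. Chance flags about 1 in 20 sets, and each set pools 2 groups of the study, so a difference between those groups can also set a library apart.

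Male Myf5High replicate 1 stood above the other Myf5High libraries in the mitochondrial sum, with a gap of 0.862 of the range, and in mitochondrial complex I (0.929), mt-Nd2 (0.947), mt-Nd4 (0.932) and mt-Nd5 (0.877). Uqcrc1, a nuclear core subunit of complex III, was also highest there (0.936). For mt-Nd6 it was male Myf5High replicate 2 that stood apart, as the lowest (0.966), and that library was also lowest for Atp5g3 (0.929) and Cox6b1 (0.908).

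Among female libraries, Myf5Low replicate 2 was highest in the nuclear sum (0.945) and Cox6b2 (0.842) and lowest in Uqcrh (0.866). Myf5Low replicate 1 was lowest in nuclear complex II (0.919), Uqcrb (0.876) and Uqcrc1 (0.9497). Myf5High replicate 1 was lowest in Atp5k (0.891) and Myf5High replicate 2 in Cox6a2 (0.959). Among Myf5Low libraries, female replicate 2 was highest in Atp5j (0.859), Cox6b2 (0.936) and Ndufb3 (0.855), and male replicate 2 lowest in nuclear complex I (0.850). Among male libraries, Myf5Low replicate 2 was highest in Cox6a2 (0.857) and Myf5High replicate 1 in Cox7a2 (0.830).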

How the results depend on the processing

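The number of members called was small in each comparison and moved with the processing. For female against male it was 1, and it was 8 without a filter on low counts, 2 with pool sums, 2 with DESeq2 and 0 to 12 when 1 library was left out, with 12 without male Myf5High replicate 1. For Myf5High against Myf5Low it was 0, and 0 to 1 without 1 library, the 1 being mt-Nd6 without male Myf5High replicate 1. In females it was 0, and 2 without a filter (mt-Nd1 and mt-Nd2). For the interaction it was 0, and 1 without a filter and 0 to 1 without 1 library, the 1 being mt-Nd2 in both. Scaling and the stricter filter changed no count of members.

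Over all genes, the calls for fraction were 141, and 291 without a filter, 234 with DESeq2 and 82 to 243 without 1 library. In females they were 39, and 167, 111, 77 (only the libraries compared) and 9 to 117. In males they were 20, and 111, 80, 2 (only the libraries compared) and 8 to 74. Between the sexes they were 194, and 477, 371 and 82 to 558. For the interaction they were 0, and 14, 2 and 0 to 8. The causes were not tested.

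With the pool as a replicate block, 0 members were called for fraction, in either sex or for the interaction, as without it, and the lowest adjusted p by edgeR for fraction was 0.318 (mt-Nd6). Pools share only a number in the labels, and over the members their deviations correlated at -0.199 in females and -0.163 in males.

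The mitochondrially encoded share of gene counts was 1.53%, 2.00% without Gm42418 in the total and 1.34% to 1.65% without 1 library. Their share of the level of tested members was 71.1% per kb, 68.1% without length and 73.9% per unshared length, an alternative chosen after seeing the data. With 2 libraries per group, differences below about the spread between replicates could not be resolved, and members near 3 counts had no usable precision.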
